A study of Mus musculus with 24 samples.

Results

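Splenic CD4+ T cells of Aim2-deficient (Aim2-/-) and wild-type (WT) mice were compared after 24 h of stimulation with antibodies to CD3 and CD28. The comparison rests on 6 of the 24 messenger RNA libraries of the time course, chosen by their labels: 3 labelled Aim2-/- (KO 1, KO 2 and KO 4) and 3 labelled WT (WT 1, WT 3 and WT 4). All mice had the C57BL6 strain background, and the study describes them as matched for sex and age, which the labels do not give. Each library came from 1 mouse, and each of the 6 mice also gave libraries at 0, 3 and 6 h. The libraries of those times enter the gene filter, the scaling and the estimate of the spread between mice. They also enter the marker scores, the comparison with 0 h and the levels of Aim2 given below. The Aim2-/- allele was carried in every cell of the mouse, so it marks no T cell-specific deletion. CD4+ cells were enriched by removing antibody-labelled cells of other types with magnetic beads, and they were not sorted into naive, memory or regulatory T cells.

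AIM2 is a cytosolic receptor that binds double-stranded DNA and, in macrophages, nucleates an inflammasome with the adaptor ASC and caspase-1. Aim2 belongs to the Ifi200 family, a cluster of interferon-inducible genes on mouse chromosome 1. The 2 antibodies act in place of antigen and co-stimulation, and CD4+ T cells answer with growth, division and the secretion of cytokines and chemokines. A negative selection leaves behind any cell that the depleting antibodies do not bind, and such cells carry transcripts that resting or activated T cells do not make, such as immunoglobulins of B and plasma cells, proteases of basophils and granule enzymes of neutrophil precursors.

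The 6 libraries of 24 h held between 19715161 and 20979089 gene counts. Levels are given as CPM (counts per 1e6 counts, with library sizes scaled by TMM), and 3 counts, the floor used here, correspond to between 0.147 and 0.154 CPM, which covers counting error only. Values follow the order WT 1, WT 3, WT 4 and KO 1, KO 2, KO 4 throughout. No pair of libraries agreed within sampling noise, so all were counted as separate. Their first principal component carried 58.8% of the variance of log2 CPM and placed KO 1 at 74.9 and KO 4 at 28.7, against -4.42 for KO 2 and -15.5, -51.5 and -32.2 for WT 1, WT 3 and WT 4. KO 1 stood farthest from the others, and counts that rest on it are given below with and without it. Since nothing states on which day each mouse was processed, day and genotype cannot be told apart.

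The targeted gene was examined first. Aim2 (ENSMUSG00000037860, chr1:173350879-173466040 in GRCm38) was measured at 5.57, 34.0 and 38.7 CPM in WT and 6.55, 7.15 and 5.28 CPM in Aim2-/- libraries. The library labelled WT 1 lay within the range of the Aim2-/- libraries, whereas WT 3 and WT 4 lay well above it, so that the groups overlapped. At 0, 3 and 6 h the same mouse also had less Aim2 than the other 2 WT mice, between 11.5 and 21.5 CPM against a range from 32.5 to 75.0 CPM. The Aim2-/- libraries of those times lay between 8.18 and 20.1 CPM. At each of those times WT 1 lay slightly above the highest Aim2-/- library and well below WT 3 and WT 4. Its levels were 21.5 CPM at 0 h, 17.0 at 3 h and 11.48 at 6 h, against 20.1, 15.1 and 11.38. Aim2 thus went against the WT label of this mouse in all 4 of its libraries, the label is in doubt, and every value of Aim2-/- minus WT that includes this mouse carries that doubt. With the labels as given, the log2 fold change of Aim2 (Aim2-/- minus WT, here and below) was -2.04 (adjusted p 0.0784, SE 0.56), and the CPM values of the 6 libraries gave p = 0.3 in a two-sided exact permutation test, in which 3 against 3 libraries cannot go below 0.1. Without the 4 libraries of mouse WT 1 it was -2.52 (adjusted p 8.8e-08). The comparisons below keep the labels and include the library labelled WT 1 unless its mouse is said to be left out.

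Other members of the Ifi200 family showed the same arrangement of libraries. Ifi213 stood at 0.304, 4.32 and 12.5 CPM in WT and 0.342, 0.554 and 0.257 CPM in Aim2-/- libraries, and Ifi206 at 1.87, 9.20 and 16.3 CPM and 2.45, 1.51 and 2.41 CPM. In both, WT 3 and WT 4 were the libraries with high values. Ifi204 ran the other way, with 4.51, 0.0514 and 0.257 CPM in WT and 11.4, 5.34 and 6.77 CPM in Aim2-/- libraries. For Ifi204 the library labelled WT 1 was again close to the Aim2-/- libraries, and WT 3 and WT 4 were near the floor. None of the 13 measured members of the family was called in the fit of all mice, in which 102 of 15325 genes (0.666%) were called. Without mouse WT 1, in a fit with 1.05% of genes called, 7 members were called. Aim2, Ifi213 (-4.43), Ifi206 (-2.58), Ifi208 (-1.57) and Ifi209 (-1.17) were lower in Aim2-/- cells, and Ifi204 (5.62) and Ifi202b (7.53) were higher, each as a log2 fold change. Ifi202b had no count in WT 3 and WT 4, so that its fitted value is no bound on the fold. Ifi203 (17.6, 17.4 and 29.4 CPM in WT and 31.3, 19.6 and 20.5 CPM in Aim2-/- libraries) and Mndal (16.9, 22.4 and 35.01 CPM in WT and 30.2, 18.9 and 17.9 CPM in Aim2-/- libraries) were not called in either fit. Members of this family are close copies of each other, and the counting may have split their reads.

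**Figure D1:**
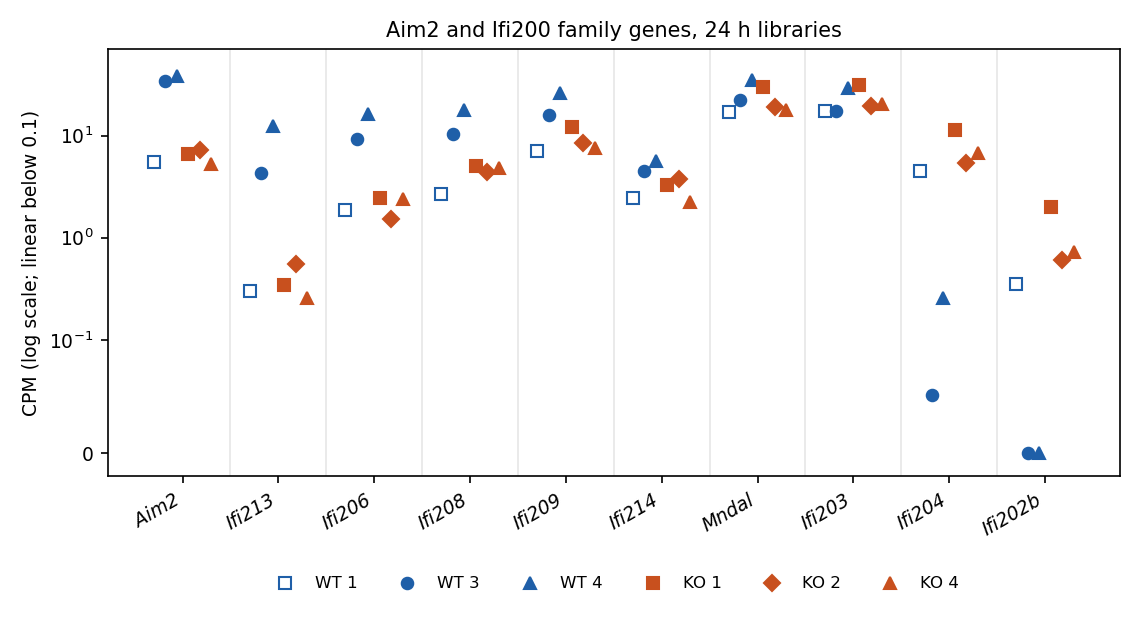
Level of Aim2 and 9 other Ifi200 family genes in each 24 h library, in CPM on a log scale that is linear below 0.1; blue symbols are WT, orange symbols Aim2-/-, and the open square is the library labelled WT 1. For Aim2 the open square, at 5.57 CPM, lies among the Aim2-/- libraries and apart from WT 3 and WT 4 at 34.0 and 38.7 CPM.

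In the whole comparison, 101 genes (0.659%) were higher and 1 gene (0.00653%) was lower in Aim2-/- cells at an adjusted p under 0.05 by edgeR's quasi-likelihood F test. At an unadjusted p under 0.05 there were 3134 genes. The groups of 3 libraries did not overlap for 101 of the 102 called genes, the exception being Metrnl, which is named because it was the only one. Over all genes tested, the groups did not overlap in 11.1% with Aim2-/- higher and in 10.2% with Aim2-/- lower. KO 1 was the highest Aim2-/- library in 94 of the 102 genes, and WT 3 the lowest WT library in 72. The library labelled WT 1 lay nearer to the Aim2-/- mean than to the other WT libraries in 1 of them, Ccl5, beside 37.7% of all genes tested. Genes called with WT 1 in the WT group are chosen in part for its lying with WT 3 and WT 4. The choice thus fixes this count in part. The difference of the genotypes in the response to 24 h of stimulation, tested as an interaction against 0 h, called 0 genes with edgeR (0%), while 1825 genes had an unadjusted p under 0.05 and DESeq2 called 186. As the 4 libraries of a mouse come from the same animal, limma-voom was also run with the mouse as a random effect (correlation 0.31). It called 35 genes at 24 h, 27 of them among the 102, and 203 in the interaction, against 5 and 2 in limma-voom without the mouse.

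Genes of other cells were separated from T cell genes with marker lists. Of the 308 genes tested that belong to a list for another cell type, 24 were called (7.79%), all higher in Aim2-/- cells. Without the variable, diversity and joining segments of immunoglobulins the share was 19 of 132. Of the 314 genes tested in lists for T cell functions, 6 were called, namely Il6, Ccl5, Cxcl9, Cxcl10, Penk and Gsdmd. A place in these lists does not show that T cells made the transcript, and the source of these 6 was not tested. The remaining 72 calls came from the 14703 genes in no list (0.490%). The median log2 fold change was 2.54 over the lists of other cells and 0.12 over the T cell lists, beside 0.01 over all genes tested. Only 176 of 383 immunoglobulin segments passed the filter. A segment can pass it through the libraries where it is high alone, so the sign of those near the floor in WT is fixed in part. Without the segments the median of the lists of other cells was 1.95, and 0.13 with the marker scores described below. In bulk samples, more cells of a type and more RNA per cell of that type cannot be told apart.

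Among markers of basophils and mast cells, 6 of 10 members tested were called. Mcpt8, a protease of basophils, was measured at 5.73, 2.67 and 5.29 CPM in WT and 85.3, 22.1 and 40.3 CPM in Aim2-/- libraries. Its log2 fold change was 3.43 (adjusted p 0.00645, SE 0.49), and every Aim2-/- library exceeded every WT library. Prss34, another basophil protease, had 3.85, 1.90 and 3.49 CPM in WT and 51.4, 13.5 and 26.8 CPM in Aim2-/- libraries, with a log2 fold change of 3.31 (adjusted p 0.00689, SE 0.50). Cpa3, a carboxypeptidase of mast cell and basophil granules, rose by 3.32 (1.06, 0.822 and 1.44 CPM against 20.3, 3.63 and 9.54 CPM, adjusted p 0.0146). Genes for the alpha and beta chains of the high-affinity IgE receptor rose as well, Fcer1a by 2.55 and Ms4a2 by 3.03, as did Gata2, a transcription factor of these lineages, by 1.93. Fcer1g, the gamma chain, which NK and myeloid cells also use, overlapped between the groups and did not pass (2.28, 1.80 and 2.93 CPM in WT and 21.5, 2.42 and 7.64 CPM in Aim2-/- libraries, adjusted p 0.0916). The members of the list that did not pass the threshold were Kit, Cd200r3, Hdc and Cma1. KO 1 was highest and KO 2 lowest among the Aim2-/- libraries for all 6 called members, so that the rise was not equal between the mice. The summed level of the list was 35.7, 25.6 and 36.6 CPM in WT and 260.3, 78.5 and 140.0 CPM in Aim2-/- libraries.

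The 250 bases before the transcription start of Prss34 and Cpa3, which rose together, are shown with GATAA, the core of sites bound by GATA factors, in capitals (RefSeq sequence, GRCm38.p6, written 5′ to 3′ on the strand of the gene).
Prss34 (chr17:25298144-25298393, plus strand): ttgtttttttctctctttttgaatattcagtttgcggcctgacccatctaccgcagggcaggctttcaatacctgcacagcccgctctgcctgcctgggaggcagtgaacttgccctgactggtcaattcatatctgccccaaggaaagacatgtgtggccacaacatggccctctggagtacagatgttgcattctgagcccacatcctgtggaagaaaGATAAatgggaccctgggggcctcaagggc
Cpa3 (chr3:20242182-20242431, minus strand): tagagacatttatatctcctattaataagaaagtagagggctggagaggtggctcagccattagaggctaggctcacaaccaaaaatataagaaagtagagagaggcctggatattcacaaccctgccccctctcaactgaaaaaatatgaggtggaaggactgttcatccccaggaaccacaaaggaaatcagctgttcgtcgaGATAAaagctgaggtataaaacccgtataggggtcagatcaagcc
Both strands were searched, so that TTATC also counts as a match. Each of these windows held 1 match, that of Ms4a2 held 3 and that of Mcpt8 held 0. Of the 32851 windows of this length before RefSeq gene starts, 22.6% held at least 1 match. Counted by gene, 6883 of 27025 genes held a match, and 4 of the 6 called genes of the list did. Of the windows found for all called genes, 26.1% held a match.

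Granule enzymes of neutrophil precursors formed the next group. Mpo, myeloperoxidase, stood at 3.29, 2.06 and 3.13 CPM in WT and 48.6, 8.01 and 19.6 CPM in Aim2-/- libraries, a log2 fold change of 3.17 (adjusted p 0.0125, SE 0.56). Ctsg, cathepsin G, rose by 3.80, Ms4a3, a membrane protein of granulocyte precursors, by 3.30 and Slpi, an inhibitor of neutrophil elastase, by 3.69. These were 4 of 16 members tested. Elane and Prtn3 did not pass the threshold, with 3.13 (adjusted p 0.0916) and 3.44 (adjusted p 0.0617). S100a8, a calcium-binding protein of mature neutrophils, was at 0.0507, 0.0514 and 0 CPM in WT and 7.04, 0.101 and 0.154 CPM in Aim2-/- libraries, which is near the floor everywhere but in KO 1 (adjusted p 0.164). The summed level of this list was 7.19, 5.60 and 7.08 CPM in WT and 155, 21.1 and 47.0 CPM in Aim2-/- libraries.

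Immunoglobulin genes, the products of B cells and plasma cells, formed a further group. Igkc, the constant region of the kappa light chain, was measured at 105, 20.2 and 45.4 CPM in WT and 1564, 364 and 577 CPM in Aim2-/- libraries, with a log2 fold change of 3.87 (adjusted p 0.0166, SE 0.72). Ighg3 rose by 3.17 and Ighg2b by 4.07, so that 3 of 11 constant regions tested were called. Jchain, which joins IgM and IgA subunits in plasma cells, had 20.8, 3.24 and 5.24 CPM in WT and 215, 38.3 and 87.6 CPM in Aim2-/- libraries and did not pass the threshold (log2 fold change 3.54, adjusted p 0.0630), although the groups did not overlap. Mzb1, an endoplasmic reticulum protein of plasma cells, rose by 3.74. Among 176 variable, diversity and joining segments, 5 were called, which were Igkv4-91, Ighv1-55, Ighv3-6, Igkj5 and Igkj1. Igkv4-91 had 2 counts over the WT libraries, and the ratio of its counts was 139 with an exact 95% counting interval from 38.1 to 1152. Segments are near-identical copies of each other, and their single values are uncertain.

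Markers of mature B cells were less regular. Blnk, an adaptor of B cell receptor signalling, and Ly6d were called, with log2 fold changes of 3.48 and 3.07, out of 15 tested. The defining marker Ms4a1 (0.203, 0.206 and 0.103 CPM in WT and 2.59, 0.252 and 0 CPM in Aim2-/- libraries), which encodes CD20, was high in KO 1 only and was not called. Summed over the list, B cell markers reached 17.1, 15.8 and 15.2 CPM in WT and 61.3, 19.9 and 21.8 CPM in Aim2-/- libraries. These sums did not overlap, but KO 2 and KO 4 lay close to the WT libraries. The constant regions stood at 693, 415 and 428 CPM in WT and 4074, 1303 and 1767 CPM in Aim2-/- libraries. Their sums did not overlap either and lay farther apart. MHC class II genes, which B cells and other antigen-presenting cells carry, gave 0 calls of 11. Cd74, the invariant chain, stood at 84.1, 68.6 and 91.3 CPM in WT and 389, 117 and 174 CPM in Aim2-/- libraries, and H2-Aa at 19.5, 10.6 and 19.6 CPM in WT and 140.5, 23.5 and 56.6 CPM in Aim2-/- libraries, with adjusted p of 0.0784 and 0.0903.

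For monocytes and macrophages 0 of 17 members were called, with a median log2 fold change of 2.66. Lyz2, lysozyme, was at 18.6, 8.38 and 9.96 CPM and 127, 20.2 and 29.3 CPM (adjusted p 0.0984), and Csf1r, the receptor of colony-stimulating factor 1, at 0.507, 0.308 and 0.257 CPM and 7.19, 0.856 and 0.821 CPM (adjusted p 0.0915). Both were highest in KO 1 and close to the WT libraries in KO 2. Erythroid and platelet markers gave 3 calls of 19, all of genes that platelets and their precursors use. Itga2b, an integrin chain, rose by 1.79, Pf4, platelet factor 4, by 2.17 and Gp9, a platelet glycoprotein, by 3.05. Haemoglobin was not called. Hbb-bs was at 12.0, 4.01 and 5.08 CPM in WT and 114, 14.2 and 57.3 CPM in Aim2-/- libraries, and its adjusted p was 0.189. NK cell, dendritic cell, CD8 and gamma delta T cell and stromal markers gave 0 calls of 10, 8, 6 and 3.

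**Figure D2:**
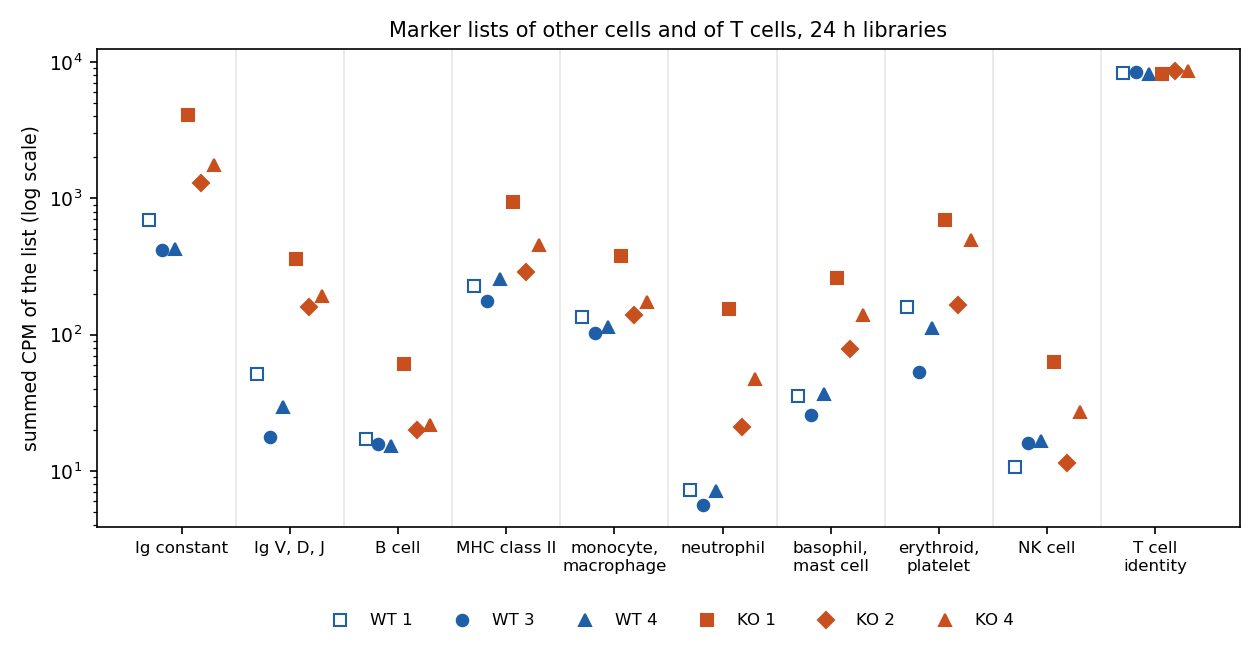
Summed CPM of the members of each marker list in each 24 h library, on a log axis; blue symbols are WT, orange symbols Aim2-/-, and the open square is the library labelled WT 1. KO 1 is the highest library for each of the 9 lists of other cells, while the T cell identity list lies between 8128 and 8604 CPM in all 6 libraries.

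Scores for B cells, myeloid cells (monocytes, neutrophils and basophils together) and erythroid cells were then entered as terms of the model, each the mean log2 CPM of its list, centred over the 24 libraries. At 24 h the myeloid score was -1.71, -2.04 and -1.86 in WT and 1.25, -1.05 and -0.54 in Aim2-/- libraries, and the B cell score was -0.96, -0.94 and -1.30 in WT and 1.29, -0.48 and -0.69 in Aim2-/- libraries. Every Aim2-/- library had a higher score than every WT library for both. The score terms, tested together over all 24 libraries, were called for 3047 genes (19.9%) and for 47 of the 102 called genes. Members of the lists behind the scores were tested against means that contain them, so the 47 are in part fixed by the lists. The 102 calls then fall into 24 genes listed for other cells, 33 other genes that passed the test of the score terms and 45 that did not. Genes listed for other cells can also fail this test. Igkc (adjusted p of the score terms 0.127), Ighg2b (0.323) and Ly6d (0.143), a B cell marker, did not pass it. A place among the 45 thus does not show that T cells made the transcript. The median log2 fold change of the 24 was 3.32 without and 2.12 with the scores, that of the 33 was 2.11 and 0.88, and that of the 45 was 1.25 and 0.91. Many of the 24 belong to the lists behind the scores, so their smaller median with the scores is also fixed in part.

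With the scores in the model, 14 genes were called (0.0914%), of which 11 were higher and 8 were listed for other cells. Only 5 were among the 102, namely Mcpt8 at 2.11 (adjusted p 0.00854), Prss34 at 1.89 (adjusted p 0.0168), Ms4a3 at 1.64 (adjusted p 0.0479), Igkv4-91 and Pvrig. The first 3 are themselves members of the lists behind the myeloid score. The 3 genes called lower, named here after their values were seen, were Vangl2, Fgr and Il5. Il5, a T helper 2 cytokine, had 2.74, 1.95 and 1.85 CPM in WT and 16.2, 0.705 and 2.21 CPM in Aim2-/- libraries, and its fitted log2 fold change was 1.55 without and -3.22 with the scores. All 102 genes kept their direction with the scores. As the scores and the genotype move together, and the scores spend 3 degrees of freedom, a call lost with them does not show that the levels were equal. Beyond this fit, the part of other cells in the values of genes in no such list was not tested.

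**Figure D3:**
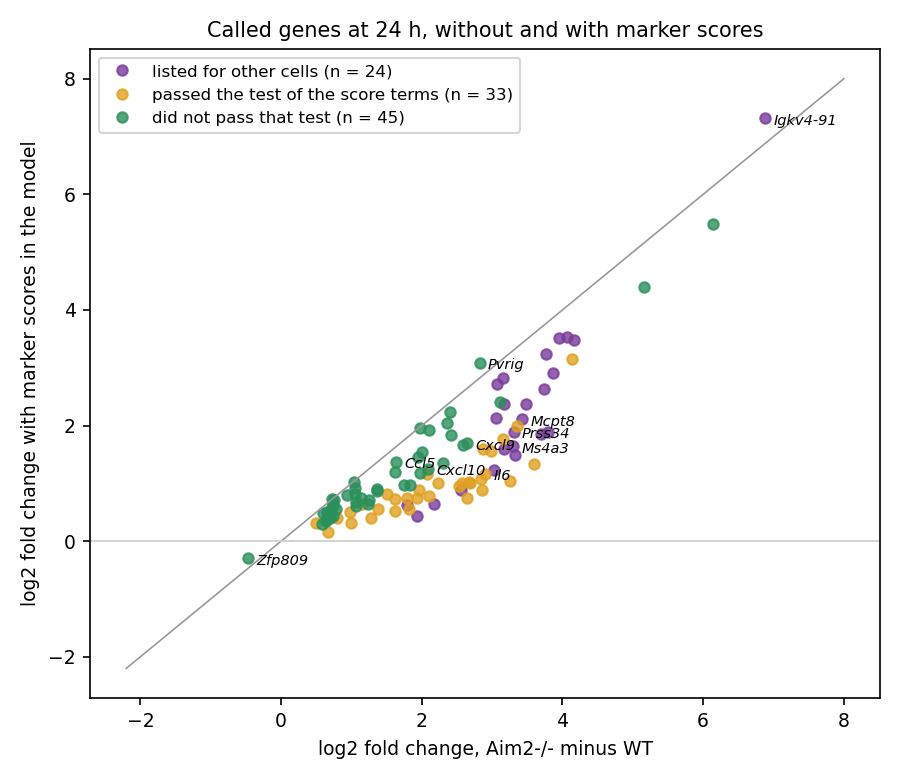
Log2 fold change (Aim2-/- minus WT) of the 102 called genes at 24 h without marker scores in the model (horizontal) and with them (vertical); the grey diagonal marks equal values and colours mark the 3 classes. Points lie below the diagonal except those of Igkv4-91, Pvrig and Zfp809.

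Of the 33 genes in no list of other cells that passed the test of the score terms, the lowest adjusted p of genes with a symbol were those of Alox5, Ramp3, Ifitm1, Crem, Ctla2a and Ypel3. Alox5, 5-lipoxygenase of leukotriene synthesis, was at 1.37, 0.822 and 2.00 CPM in WT and 15.6, 7.10 and 7.95 CPM in Aim2-/- libraries, with a log2 fold change of 2.87 (adjusted p 0.0100, SE 0.47), and 1.59 with the scores. Ramp3, which modifies calcitonin-type receptors, had 2.99, 3.13 and 4.36 CPM in WT and 12.4, 5.59 and 11.7 CPM in Aim2-/- libraries. Crem, a cyclic AMP-responsive transcription factor, rose by 0.79 from 44.0, 44.6 and 47.1 CPM to 91.1, 60.9 and 83.2 CPM. Hk3, a hexokinase, rose by 2.57, Slc18a2, a vesicular monoamine transporter, by 2.84 and Napsa, an aspartic protease, by 2.66. Kcnj2, a potassium channel, had 3 counts over the WT libraries and a count ratio of 19.6 (exact 95% counting interval 6.40 to 97.9). Il6 was the only one of 19 T helper cytokines tested to be called. It was at 0.355, 0.360 and 0.719 CPM in WT and 6.99, 1.36 and 2.46 CPM in Aim2-/- libraries (2.90, adjusted p 0.0361), and with the scores the value was 1.17 (adjusted p 1.00).

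The 45 genes that did not pass the test of the score terms include all 3 chemokines of the chemokine list that were called. Cxcl9 and Cxcl10, both interferon gamma-induced ligands of the receptor CXCR3, are neighbours on chromosome 5. Cxcl9 was measured at 4.36, 3.60 and 5.75 CPM in WT and 48.7, 12.997 and 24.1 CPM in Aim2-/- libraries, a log2 fold change of 2.64 (adjusted p 0.0117, SE 0.45). Cxcl10 was at 4.71, 3.60 and 5.80 CPM and 36.1, 7.30 and 16.7 CPM, a log2 fold change of 2.09 (adjusted p 0.0285, SE 0.42). Both were highest in KO 1 and lowest in WT 3, and the groups did not overlap. Ccl5, a chemokine that attracts T cells and monocytes, had 8.51, 3.44 and 5.03 CPM in WT and 24.7, 12.5 and 15.4 CPM in Aim2-/- libraries and rose by 1.63 (adjusted p 0.0117). With the scores the values were 1.69 (adjusted p 0.650), 1.25 (adjusted p 0.939) and 1.38 (adjusted p 0.352). Without mouse KO 1 the adjusted p were 0.0809, 0.344 and 0.159. Without mouse WT 1, Ccl5 was called at 2.05 (adjusted p 0.00163) and Cxcl9 at 2.61 (adjusted p 0.0340), and Cxcl10 was not called (2.09, adjusted p 0.0618).

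The windows of 250 bases before the starts of Cxcl9 and Cxcl10 are shown as those of 2 neighbouring genes that rose together. Capitals mark GAAA followed by any 2 bases and a further GAAA, the core of interferon-stimulated response elements (ISRE), and GGGANTTCC, a form of the NF-kB site, both searched on both strands (RefSeq, GRCm38.p6, 5′ to 3′ on the strand of the gene).
Cxcl9 (chr5:92328080-92328329, minus strand): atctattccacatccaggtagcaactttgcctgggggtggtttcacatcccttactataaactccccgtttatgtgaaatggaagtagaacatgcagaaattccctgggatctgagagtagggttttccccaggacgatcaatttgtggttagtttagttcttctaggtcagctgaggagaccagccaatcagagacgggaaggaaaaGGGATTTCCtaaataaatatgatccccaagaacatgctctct
Cxcl10 (chr5:92348890-92349139, minus strand): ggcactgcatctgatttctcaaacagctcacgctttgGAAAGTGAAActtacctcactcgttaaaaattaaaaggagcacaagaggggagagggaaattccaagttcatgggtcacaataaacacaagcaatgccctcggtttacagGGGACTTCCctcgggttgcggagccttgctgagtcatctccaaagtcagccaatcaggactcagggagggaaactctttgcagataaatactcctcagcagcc
Cxcl10 held 1 match of the ISRE core and Cxcl9 held 0, while each held 1 match of GGGANTTCC. Of all 32851 windows, 2.98% held the first and 1.43% the second.

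Further chemokines of the list were higher in KO 1 and KO 4 without being called. Ccl3 was at 126, 73.2 and 119 CPM in WT and 375, 135 and 253 CPM in Aim2-/- libraries, with a log2 fold change of 1.26 and an adjusted p of 0.109. Xcl1 (131, 79.6 and 141 CPM in WT and 461, 139.9 and 257 CPM in Aim2-/- libraries) and Ccl1 (177, 73.7 and 149 CPM in WT and 665, 145 and 253 CPM in Aim2-/- libraries) overlapped between the groups, since KO 2 lay within the WT range of both. Of the 10 chemokines tested, 3 were called, all higher. The median log2 fold change of the list was 1.45 without and -0.15 with the scores.

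Receptors and regulators of lymphocytes were among the 45 as well. Neurl3, a ubiquitin ligase, shared the lowest adjusted p of this class with Pvrig, at 19.7, 12.4 and 17.1 CPM in WT and 59.0, 32.5 and 35.2 CPM in Aim2-/- libraries (log2 fold change 1.37, adjusted p 0.00689, SE 0.21). Pvrig, an inhibitory receptor of T and NK cells, had 0.0507, 0.103 and 0.0513 CPM in WT and 0.440, 0.655 and 0.462 CPM in Aim2-/- libraries, which rests on 4 counts over the WT libraries. Its log2 fold change was 2.82 without and 3.08 (adjusted p 0.0142) with the scores, and it was also called without mouse WT 1 and without mouse KO 1. Penk, the enkephalin precursor and a member of the Treg signature, was at 33.8, 15.4 and 23.8 CPM in WT and 109, 44.0 and 91.2 CPM in Aim2-/- libraries and rose by 1.75 (adjusted p 0.0231). Il10ra, a chain of the interleukin 10 receptor, had 25.7, 16.5 and 22.9 CPM in WT and 48.2, 31.9 and 32.2 CPM in Aim2-/- libraries and rose by 0.79 (adjusted p 0.0490). Socs3, a feedback inhibitor of cytokine receptors, had 44.3, 46.4 and 65.2 CPM in WT and 94.1, 78.6 and 85.6 CPM in Aim2-/- libraries (0.73, adjusted p 0.0481), and without mouse WT 1 the adjusted p was 0.0787. Fosl2, a subunit of AP-1, rose by 0.65 from 27.4, 24.7 and 29.8 CPM to 50.7, 37.4 and 40.1 CPM.

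Further genes of this class have other known roles. Ifi27, an interferon-inducible gene, rose by 1.05, and Gsdmd, gasdermin D, the pore-forming protein cleaved by inflammatory caspases, rose by 0.58 from 44.0, 31.6 and 44.5 CPM to 69.0, 51.3 and 58.6 CPM. Gsdmd was the only one of 10 inflammasome genes to be called. Igfbp4, which binds insulin-like growth factors, rose by 0.60, Tent5a, a poly(A) polymerase, by 0.93, and Cacnb3, a subunit of voltage-gated calcium channels, by 1.37. Ctse, the protease cathepsin E, rose by 1.25, Ubd, a ubiquitin-like modifier, by 2.58 and Scin, an actin-severing protein, by 1.84. Spon1 had no count in any WT library and, in Aim2-/- cells, a level at least 8.18-fold higher, taking the floor of 3 counts over the WT group. Cacna1h, a calcium channel, had 1 count over the WT libraries and a count ratio of 48.1 (exact 95% counting interval 8.24 to 1938). The remaining rises of the class were those of Rab19, Plekha6, Myo3b, Galc, Hoxb4, Phf1, Iffo1, Mirt1, Pisd-ps1, Sdcbp2, Mmp25, Ryr3, Baiap3, Emc9, Neil1, Slc26a11, Rap1gap, P2ry14, Ptprn, Cdc42ep2, Kansl1l, Cysltr2, Cxcl2 and Dio2 and of 1 gene with a clone name.

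The single gene called lower was Zfp809, a zinc finger protein that silences retroviral elements. It was at 36.3, 40.0 and 39.2 CPM in WT and 25.2, 31.0 and 26.8 CPM in Aim2-/- libraries. Its log2 fold change was -0.48 (adjusted p 0.0369, SE 0.10), and the groups did not overlap. With the scores the value was -0.30 (adjusted p 0.878), and without mouse WT 1 it was -0.52 (adjusted p 0.0450).

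Genes that define T cells differed little between the groups. None of 20 T cell identity genes was called. Their median log2 fold change was 0.04, with values from -0.39 to 0.31. The groups did not overlap for 5 of them with Aim2-/- higher and for 1 with Aim2-/- lower, beside 11.1% and 10.2% of all genes tested. Cd4 was at 599, 580.0 and 530.4 CPM in WT and 550.1, 588 and 567 CPM in Aim2-/- libraries, Cd3e at 426, 399.7 and 408 CPM in WT and 403, 437 and 407 CPM in Aim2-/- libraries and Trac at 645, 654 and 651 CPM in WT and 683, 709.9 and 708 CPM in Aim2-/- libraries. The lowest adjusted p of the list was that of Cd3g, at 0.105 with a log2 fold change of 0.31. The labelled cell type was thus borne out by its defining markers in all 6 libraries.

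Of 18 activation genes tested 0 were called, and the median was -0.04. Tnfrsf9, the co-stimulatory receptor 4-1BB, came nearest to the threshold, at 207, 181 and 215 CPM in WT and 402, 259 and 339 CPM in Aim2-/- libraries (0.73, adjusted p 0.0520, SE 0.17). Batf, an AP-1 factor, had 98.8, 96.5 and 104 CPM in WT and 151, 118 and 139 CPM in Aim2-/- libraries, and Tnfrsf18, the receptor GITR, had 237, 259 and 279 CPM in WT and 360.4, 285 and 379.9 CPM in Aim2-/- libraries. Tnfrsf9, Batf and Tnfrsf18 had no overlap between the groups, with Aim2-/- higher. Over the list, the groups did not overlap for 4 genes with Aim2-/- higher and for 5 with Aim2-/- lower, beside 11.1% and 10.2% of all genes tested. Egr3, a target of T cell receptor signalling, had no overlap with Aim2-/- lower, at 94.1, 108 and 105 CPM and 57.5, 72.4 and 58.0 CPM (adjusted p 0.129). Cd40lg, the ligand of CD40, had no overlap either, at 78.5, 84.3 and 77.3 CPM in WT and 53.1, 59.4 and 55.4 CPM in Aim2-/- libraries (adjusted p 0.148). Il2ra, the high-affinity chain of the interleukin 2 receptor, had 775, 759.9 and 781 CPM in WT and 811, 790.3 and 765 CPM in Aim2-/- libraries, which is a log2 fold change of 0.03 with an SE of 0.14. The 14 genes of resting T cells gave 0 calls and a median of 0.02.

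Among T helper cytokines the fitted values were positive for 17 of 19, and the median was 0.89. Ifng, interferon gamma, was at 103, 63.3 and 121 CPM in WT and 435, 169.6 and 346 CPM in Aim2-/- libraries, with a log2 fold change of 1.73 (adjusted p 0.0605, SE 0.43). The groups did not overlap, and KO 2 was the nearest to WT. Il10 was at 19.96, 5.45 and 9.50 CPM and 41.4, 13.7 and 18.9 CPM, and WT 1 exceeded KO 2 and KO 4. It was not called with all mice (1.08, adjusted p 0.258, SE 0.54) and was called without mouse WT 1, at 1.72 (adjusted p 0.0348). For Il2, the growth factor of T cells, the groups did not overlap with Aim2-/- lower, at 139, 149 and 148 CPM against 118, 86.4 and 109 CPM (adjusted p 0.283). Il4 (8.92, 11.8 and 21.4 CPM in WT and 37.0, 9.37 and 16.3 CPM in Aim2-/- libraries) and Il17a (3.496, 1.49 and 1.54 CPM in WT and 14.7, 1.91 and 6.52 CPM in Aim2-/- libraries) overlapped, with high values in KO 1. With the scores the median of the list was -0.28.

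Of the 19 lineage transcription factors 0 were called (median 0.20). Foxp3, the defining factor of regulatory T cells, was measured at 62.9, 34.5 and 49.9 CPM in WT and 146, 66.3 and 69.4 CPM in Aim2-/- libraries. Its log2 fold change was 0.94 (adjusted p 0.0784, SE 0.26). The groups did not overlap, but KO 2 and KO 4 lay close to WT 1, and KO 1 was far above both. With the scores the fitted value was 0.40 (adjusted p 1.00), and without mouse WT 1 it was 1.15 (adjusted p 0.0787). Gata3, the T helper 2 factor, had 121, 137 and 169 CPM in WT and 175, 160.1 and 177 CPM in Aim2-/- libraries (0.26, adjusted p 0.203). Tbx21, of T helper 1 cells, had 221, 247 and 244 CPM in WT and 180.1, 221 and 208 CPM in Aim2-/- libraries, and the groups overlapped. Maf and Prdm1 were called without mouse WT 1 only, at 1.48 (adjusted p 0.0370) and 1.39 (adjusted p 0.0348), and which cells made them was not tested. WT 1 was the highest WT library for both.

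The Treg signature holds 14 genes that the study names, so that its direction is not independent of the study's choice. Penk was its only call, and the median was 0.76 without and 0.18 with the scores. Ctla4 was at 136, 78.1 and 97.0 CPM and 252, 121 and 164 CPM, and KO 2 lay below WT 1. It was not called with all mice (adjusted p 0.0872) and was called without mouse WT 1, at 1.03 (adjusted p 0.0433). Ebi3, a subunit of interleukins 27 and 35, had 5.07, 4.57 and 4.16 CPM in WT and 12.96, 6.45 and 8.98 CPM in Aim2-/- libraries (adjusted p 0.0691). Gzmb, granzyme B, had 169, 145 and 227 CPM in WT and 307, 267 and 417 CPM in Aim2-/- libraries (adjusted p 0.0930). Both were higher in every Aim2-/- library. Ikzf2, the factor Helios, had 52.8, 23.8 and 28.9 CPM in WT and 106, 41.1 and 48.4 CPM in Aim2-/- libraries and overlapped. Of the 11 checkpoint receptors and ligands 0 were called, with a median of -0.02; Pdcd1, the receptor PD-1, had 215, 173 and 149.7 CPM in WT and 197, 177 and 152 CPM in Aim2-/- libraries, and Btla had 299.96, 327 and 286 CPM in WT and 239.6, 239 and 233 CPM in Aim2-/- libraries.

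Gene groups of growth and metabolism gave 0 calls each, out of 18 glycolysis genes (median -0.09), 28 cell cycle genes (-0.22) and 77 nuclear-encoded genes of oxidative phosphorylation (0.12). Fitted values were negative for 24 of the 28 cell cycle genes. Mcm5, a subunit of the replicative helicase, was at 761, 857 and 736 CPM in WT and 445, 728 and 558 CPM in Aim2-/- libraries (adjusted p 0.0876), with KO 2 close to the WT libraries. The 7 mitochondrially encoded genes tested all had higher levels in KO 1 and KO 4 than in any WT library. Their median was 0.55, and -0.04 with the scores. mt-Co1, a subunit of complex IV, had 3249, 3007 and 2990.5 CPM in WT and 6065, 3019.6 and 4808 CPM in Aim2-/- libraries (adjusted p 0.157), with KO 2 inside the WT range.

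Interferon-stimulated genes gave 0 calls of 22 (median 0.26). Isg15, a ubiquitin-like modifier, had 6.54, 7.19 and 12.0 CPM in WT and 15.02, 9.97 and 17.6 CPM in Aim2-/- libraries, and Ifit1 had 5.88, 9.40 and 14.4 CPM in WT and 9.15, 10.6 and 10.9 CPM in Aim2-/- libraries. WT 4 was the highest WT library for both and overlapped with the Aim2-/- libraries. Casp1 was higher in every Aim2-/- library, at 31.4, 15.6 and 17.3 CPM against 13.3, 8.48 and 10.98 CPM. It passed only without mouse WT 1 (adjusted p 0.0382, against 0.109 with all mice). Nlrp3 and Il1b, which myeloid cells use, were at 0.253, 0.206 and 0.257 and 1.06, 0.976 and 0.462 CPM in WT and at 2.40, 0.353 and 0.359 and 5.58, 2.17 and 4.87 CPM in Aim2-/- libraries.

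**Figure D4:**
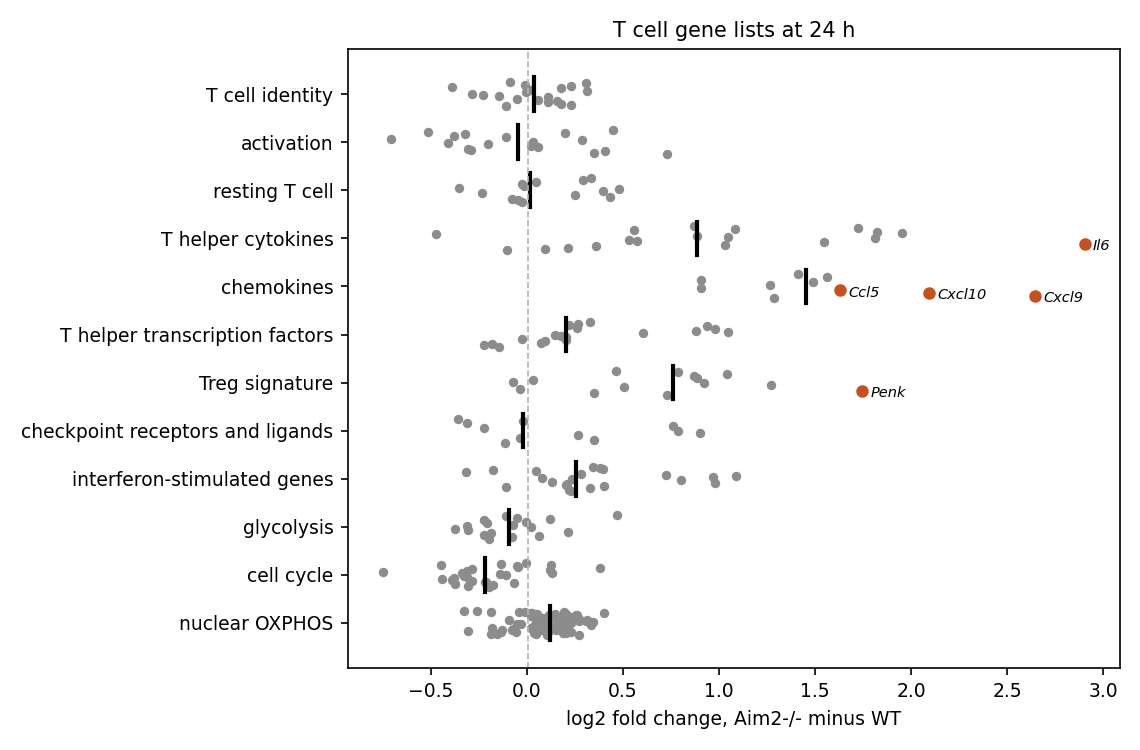
Log2 fold change (Aim2-/- minus WT) at 24 h of each gene of 12 T cell lists; grey points did not pass an adjusted p of 0.05, orange points did and are named, black bars are list medians and the dashed line is the median of all genes tested, 0.01. The calls are Il6, Ccl5, Cxcl9, Cxcl10 and Penk, and the identity, activation and resting lists are centred near the dashed line.

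The weight of the library labelled WT 1 was examined by leaving out its mouse. Then 165 genes were called, 144 higher (0.92%) and 21 lower (0.134%), and 64 of them were among the 102. By class, 34 of the 45 genes that had not passed the test of the score terms stayed called, 17 of the 24 listed for other cells and 13 of the 33 others. All 102 kept their direction, which the lack of overlap of the groups nearly fixes. Of the 101 genes called only without this mouse, 81 were higher and 20 lower, and 19 were listed for other cells. In 73 of the 101 genes the library labelled WT 1 lay nearer to the Aim2-/- mean than to WT 3 and WT 4, beside 37.7% of all genes tested, a count that the choice of these genes in part fixes. Leaving out only its 24 h library, with its other 3 kept, gave 21 calls, 15 of them among the 102.

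The falls that appeared without mouse WT 1 lay mostly on chromosome 1, the chromosome of Aim2. Of the 20, 14 lie on this chromosome, which holds 6.10% of the genes tested, and 13 lie within 25 Mb of Aim2, where 2.18% of the genes tested lie. Besides the Ifi200 family they include Slamf7, a receptor of lymphocytes, at 34.0, 66.4 and 57.5 CPM in WT and 25.2, 28.7 and 27.3 CPM in Aim2-/- libraries, with a log2 fold change of -1.20 (adjusted p 0.00213) without this mouse. Nit1, an amidase, and Flvcr1, a haem exporter, had smaller log2 fold changes of -0.50 and -0.65. Efcab7 on chromosome 4 and Rab4a on chromosome 8 showed the same arrangement away from Aim2. Efcab7, which encodes an EF-hand protein, was at 1.98, 12.2 and 11.2 CPM and 2.45, 2.27 and 2.62 CPM, and Rab4a, a GTPase of endosomes, at 2.99, 11.2 and 11.5 CPM and 3.86, 2.62 and 3.95 CPM. In both, WT 1 lay with the Aim2-/- libraries. Trav14d-3-dv8, a segment of the T cell receptor, fell as well (-1.70). Of the 81 rises called only without mouse WT 1, 12 lie on chromosome 1 and 5 within 25 Mb of Aim2.

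Among the rises that appeared without mouse WT 1, Mid1 on chromosome X, a ubiquitin ligase, was at 5.12, 0.463 and 0.513 CPM in WT and 4.60, 5.79 and 5.85 CPM in Aim2-/- libraries, and the pseudogene Tmem181b-ps on chromosome 17 at 3.14, 0.103 and 0.308 CPM and 4.84, 4.58 and 4.82 CPM. Both were near or within the Aim2-/- range in WT 1 and low in WT 3 and WT 4. Ifi203-ps, a pseudogene of the Ifi200 family, was at 1.72, 0 and 0.0513 CPM and 2.01, 1.71 and 1.28 CPM. In another set WT 1 lay above WT 3 and WT 4, and in Tox2 and Cpne7 it exceeded the lowest Aim2-/- library. Gzmk, granzyme K, was at 4.05, 1.18 and 0.924 CPM in WT and 8.07, 5.74 and 4.72 CPM in Aim2-/- libraries (2.55, adjusted p 0.00368), and Tox2, a transcription factor of T follicular helper cells, at 6.18, 1.64 and 1.85 CPM and 11.3, 4.84 and 6.87 CPM (2.13, adjusted p 0.00501). Fcgr3, an Fc receptor of myeloid and NK cells, had 3.09, 0.514 and 0.565 CPM in WT and 14.5, 4.99 and 5.64 CPM in Aim2-/- libraries. Sostdc1, Esm1 and Cpne7 rose by 3.00, 2.60 and 2.75. With both the mouse left out and the scores in the model, 143 genes were called (0.913%), of which 28 were among the 102 and 40 were listed for other cells.

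**Figure D5:**
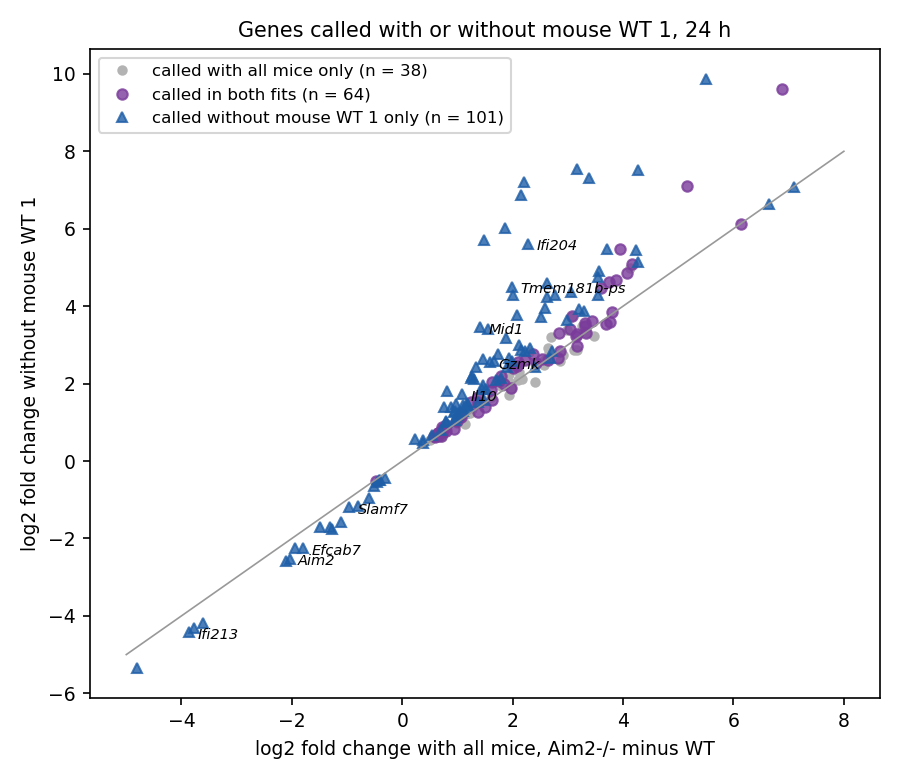
Log2 fold change (Aim2-/- minus WT) at 24 h with all mice (horizontal) and without mouse WT 1 (vertical) for genes called in either fit; the grey diagonal marks equal values. The 101 genes called only without this mouse (triangles) include Aim2, at -2.04 and -2.52, and Ifi204, at 2.28 and 5.62.

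Other mice carried more weight for the count of calls than the one labelled WT 1. Without mouse KO 1, 14 genes were called (0.0909%), all of them among the 102. These were Mcpt8, Ms4a3, Prss34, Alox5, Igkv4-91, Ctsg, Mpo, Fcgr2b, Anxa1, Ms4a2, Neurl3, Pvrig, Tent5a and Cdc42ep2, of which Fcgr2b and Anxa1 are named after their values were seen. Without mouse WT 3, 0 genes were called by edgeR (0%), with 1331 at an unadjusted p under 0.05. Without mouse WT 4 there were 6 calls (0.0384%) and without mouse KO 4 there were 18 (0.115%). Without mouse KO 2, whose myeloid and erythroid scores at 24 h were the closest to WT among the Aim2-/- mice, 2702 genes were called (17.3%), 1251 of them higher. All 102 genes kept their direction in each of these fits. As the groups did not overlap for 101 of them, leaving out a mouse could hardly reverse a direction, so this is no test.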

How the data were processed

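The authors prepared stranded mRNA libraries from CD4+ T cells, aligned the reads with STAR to GRCm38 and deposited raw read counts per gene for 54446 gene identifiers in 24 libraries. Whether strand was used in counting is not given in the sources used here, so antisense and overlapping genes are uncertain. Symbols and positions came from GENCODE annotation of the same build (54409 identifiers matched). Groups, and replicates as separate mice, are those of the labels. The main test was edgeR (version 4.0.16) quasi-likelihood F (two-sided). It was fitted to the 24 libraries together, each group of genotype and time having its own mean, with TMM scaling and filterByExpr (minimum count 10), which kept 15325 genes. Benjamini-Hochberg adjustment was used, and genes with an adjusted p under 0.05 are described as called. The main model has no term for the mouse, although its 4 libraries are not independent. Log2 CPM used a prior count of 2. Scripts were tested on simulated data. The members and lists were chosen with earlier results of these data known. Named genes are Aim2 and the Ifi200 family, any list member, called genes in no list (all not passing the test of the score terms, up to 10 of the others), genes called lower, and up to 10 rises and 10 falls called only without mouse WT 1; clone names are counted only. Alternatives were RLE or library totals, DESeq2 (version 1.42.0), limma-voom (3.58.1), other filters, blocks, marker scores and libraries or mice left out. RefSeq promoter windows were found for 71 of the 102 called genes. Some genes and 1 gene list are not reported here.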

Additional observations from a re-analysis of the deposited data

How the results depend on the processing

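The count of 102 called genes rests on the model and on single mice more than on the scaling. It was 89 with RLE factors and 120 with library totals, but 787 with DESeq2, 5 with limma-voom, 962 without a filter, 14 with the marker scores, 35 with the mouse as a random effect and 0 with edgeR on the 6 libraries of 24 h alone, where 2571 genes had an unadjusted p under 0.05. Leaving out 1 library gave between 0 and 2288 genes. Leaving out 1 mouse gave 14, 2702 and 18 genes for KO 1, KO 2 and KO 4 and 165, 0 and 6 for WT 1, WT 3 and WT 4. With all mice the higher share was 101 of 102, while DESeq2 split its calls into 544 higher and 243 lower and no filter into 749 and 213. All of the 102 that were tested kept their direction in each of these fits, and none of them stayed called in every one. For the fits without 1 library or mouse, the lack of overlap of the groups nearly fixes the direction.

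The interaction, with 0 calls in edgeR, gave 186 with DESeq2, 2 with limma-voom, 155 without a filter, 203 with the mouse as a random effect and 304 with the marker scores. Leaving out 1 library gave between 0 and 160 genes, and leaving out 1 mouse 0 genes except for KO 2, with 201, and WT 1, with 16, or 953 with the marker scores and without mouse WT 1. The genes moving with marker scores, 3047 with all mice, became 1222, 58 and 968 without KO 1, KO 2 and KO 4 and 5385, 4613 and 1821 without WT 1, WT 3 and WT 4.

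Aim2 was lower in Aim2-/- cells in each fit and passed in those that gave log2 fold changes of -2.08 (DESeq2, adjusted p 0.016), -2.09 (no filter, 1.7e-06) and -1.57 (number block, 0.0159). Without 1 library or 1 mouse its values lay between -2.52 and -1.64, called without the library of KO 2 (adjusted p 0.0391), the library of WT 1 (0.0337) and the mouse WT 1 (8.8e-08), and -2.44 with the scores and without mouse WT 1 (7.3e-07). Among other named genes, Ccl22, a ligand of CCR4, turned from 1.49 to -1.69 (adjusted p 0.00383) without mouse WT 1 and with the scores. The causes were not tested.

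Aim2-/- and WT mice share the numbers 1 and 4. The deviations of same-numbered mice correlated at 0.255 and 0.015. Those of WT 1 with KO 4 and of WT 4 with KO 1 correlated at -0.0499 and 0.0374. With so few mice these values cannot decide whether the numbers pair the mice, and the sources used here do not say so. With the number as a block, 3235 genes were called at 24 h and 210 in the interaction. With 3 mice per genotype a single mouse decides most calls, and levels under the floor of 3 counts cannot be ranked.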

Other observations

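T cell receptor segments are transcribed by T cells themselves. Of 133 alpha and beta V and J segments tested, 0 were called by edgeR with all mice and 2 without mouse WT 1, Trav14d-3-dv8 and Trav6-2, both lower in Aim2-/- cells. Without mouse WT 1 and with the marker scores neither was called, and Trav14-2 (log2 fold change 2.04), Trav14n-3 (1.79), Trav12-2 (2.30) and Trav7-5 (1.61) were called higher. The groups did not overlap for 16 of the 133 segments with Aim2-/- lower and for 1 with Aim2-/- higher. Over all 15325 genes tested these counts were 1558 (10.2%) and 1703 (11.1%), so the lower segments were near the share of all genes. Their median log2 fold change was -0.28, with values from -1.99 to 1.15. The segments were chosen for mention after their values were seen.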
